A study of Mus musculus with 9 samples.

Results

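The galectin family was followed in endothelial cells of mouse bone marrow. The genes were 5 rows picked by symbol out of 52183 in the deposited table: the galectins Lgals1, Lgals3, Lgals8 and Lgals9, and Lgals3bp, which encodes a protein that binds galectin-3. The family was picked because Lgals1 was lower in the libraries labelled Thbs1 knockout than in the 18-month controls, so that comparison is described here without a test for any of the 5. All 5 genes averaged 1 FPKM or more over the libraries and were among the 11796 genes tested.

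The 9 libraries form 3 groups of 3. The first was sorted from mice aged 18 months that the labels call Thbs1 knockouts, the second from control mice aged 18 months, and the third from control mice aged 3 months. Thbs1 encodes thrombospondin-1, a secreted matrix protein. All mice were injected before death with a labelling antibody against the endothelial adhesion molecule VE-cadherin, and marrow endothelial cells were then isolated from the long bones by flow cytometry. The labels name no strain, no sex, no allele and no part of Thbs1 that was altered, and they leave unsaid whether replicates are different animals. The p-values below therefore reflect the spread between libraries, which may be technical.

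Thbs1 itself contradicted its label. Its level was 25.63, 19.45 and 19.84 FPKM in the labelled knockout libraries, against 0.67, 0.82 and 1.17 FPKM in the 18-month controls and 4.55, 3.89 and 4.18 FPKM in the 3-month controls. FPKM counts sequenced fragments, scaled by gene length and by library depth. Which exons gave these fragments is not visible in values per gene. The group is therefore called "labelled knockout" throughout. The endothelial markers Cdh5 and Pecam1 stood at 153.15 to 176.54 and 116.47 to 174.72 FPKM over the 9 libraries, and the leukocyte gene Ptprc at 0.03 to 0.13 FPKM. The list of 10 endothelial markers summed to 2340 to 2440 FPKM in the labelled knockout, 2570 to 2650 in the 18-month controls and 2350 to 2400 in the 3-month controls. Of each sum, 17.5% to 33.7% came from 1 gene, Cldn5. The list's median log2 difference went the other way: 0.17 between labelled knockout and 18-month controls, and -0.15 with age. Of the 10, the tight junction gene Cldn5 fell in the labelled knockout relative to the 18-month controls (log2 difference -0.78, limma adjusted p = 0.00897) and rose with age (0.74, adjusted p = 0.0232), and the transcription factor gene Erg fell with age (-0.6, adjusted p = 0.0447). The recovered depth was 22160000 to 30400000 fragments per library, with a mean of 28546666 in the labelled knockout group against 23220000 in the 18-month controls and 23206666 in the 3-month controls. Replicate 2 labelled knockout was above the other 2 libraries of its group for Lgals1, Lgals3 and several genes below.

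Galectins are lectins that bind glycans carrying beta-galactosides. They lack a signal peptide, leave the cell by a non-classical route, and act both outside the cell, where they cross-link glycoproteins, and inside it, where they mark damaged endosomes and lysosomes. Galectin-1 has a single carbohydrate-recognition domain and forms dimers, galectin-3 joins such a domain to a flexible tail, and galectin-8 and galectin-9 carry a pair of domains in tandem. On endothelium, galectin-1 is known for effects on angiogenesis and leukocyte trafficking.

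The domain sequences show which genes the values are set against. The stretch below runs, in the coding strand of each gene, through the part of the domain that contacts the sugar, from a conserved histidine codon to a conserved glutamate codon. It was read from GENCODE M21 transcripts on GRCm38. Capitals mark the codons at its start, which hold the conserved histidine, asparagine and arginine, and those at its end, which hold the conserved tryptophan and glutamate.
Lgals1, chr15:78929676-78929759, plus strand, exon 3: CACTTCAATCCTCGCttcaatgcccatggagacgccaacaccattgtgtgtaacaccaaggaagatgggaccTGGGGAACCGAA
Lgals3, chr14:47384642-47384722, plus strand, exon 5: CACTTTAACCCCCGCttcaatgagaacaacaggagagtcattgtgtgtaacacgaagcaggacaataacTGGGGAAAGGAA
Lgals8, first domain, chr13:12454813-12454887, minus strand, exon 4: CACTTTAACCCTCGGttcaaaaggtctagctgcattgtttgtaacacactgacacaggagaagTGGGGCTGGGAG
Lgals8, second domain, chr13:12447195-12447266, minus strand, exon 9: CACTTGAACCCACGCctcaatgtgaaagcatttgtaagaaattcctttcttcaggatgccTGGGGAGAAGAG
Lgals9, first domain, chr11:78973066-78973140, minus strand, exon 3: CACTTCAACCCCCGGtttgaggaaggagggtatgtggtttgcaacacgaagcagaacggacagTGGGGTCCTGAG
Lgals9, second domain, chr11:78965743-78965814, minus strand, exon 10: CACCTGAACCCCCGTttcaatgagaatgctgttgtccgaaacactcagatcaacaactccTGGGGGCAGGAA

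The first domains of Lgals8 and Lgals9 were identical at 42 of the 75 bases shown, and their second domains at 45 of 72. Lgals3bp (GRCm38 chromosome 11, 118392751 to 118402092) held no such stretch in its coding sequence of 1731 bases. Over whole transcripts, either strand, the longest identical run between any pair of the 5 genes was 11 to 17 bases. Against all other annotated transcripts, Lgals1, Lgals3 and Lgals9 shared runs of at most 28, 27 and 25 bases, and Lgals3bp none of 20 or more. Lgals1 (chromosome 15, 78926725 to 78930465), Lgals3 (chromosome 14, 47367751 to 47386160) and Lgals9 (chromosome 11, 78962974 to 78984946) overlap no other annotated gene. Lgals8 (chromosome 13, 12439415 to 12464944) overlaps an exon of Heatr1 on the other strand, with a shared run of 156 bases. The libraries were made with SMART-Seq v4, a low-input kit that does not mark strand, so the value of Lgals8 is uncertain to that extent. Heatr1 stood at 1.73 to 3.84 FPKM, against 27.33 to 38.47 FPKM for Lgals8. None of the 5 genes lies on chromosome 2, where Thbs1 is.

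Galectin-1 was the galectin transcript with the widest range. Lgals1 stood at 20.75, 66.1 and 25.15 FPKM in the labelled knockout libraries, at 189.1, 133.95 and 98.84 FPKM in the 18-month controls, and at 41.7, 46.58 and 49.72 FPKM in the 3-month controls. All 3 of the 18-month controls were above the other 6 libraries. The labelled knockout libraries fell on both sides of the 3-month controls, replicate 2 above them and replicates 1 and 3 below. The group means were 37.3 ± 25.0, 140.6 ± 45.5 and 46.0 ± 4.04 FPKM in the labelled knockout, 18-month control and 3-month control groups (SD, n = 3 each).

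**Figure D1:**
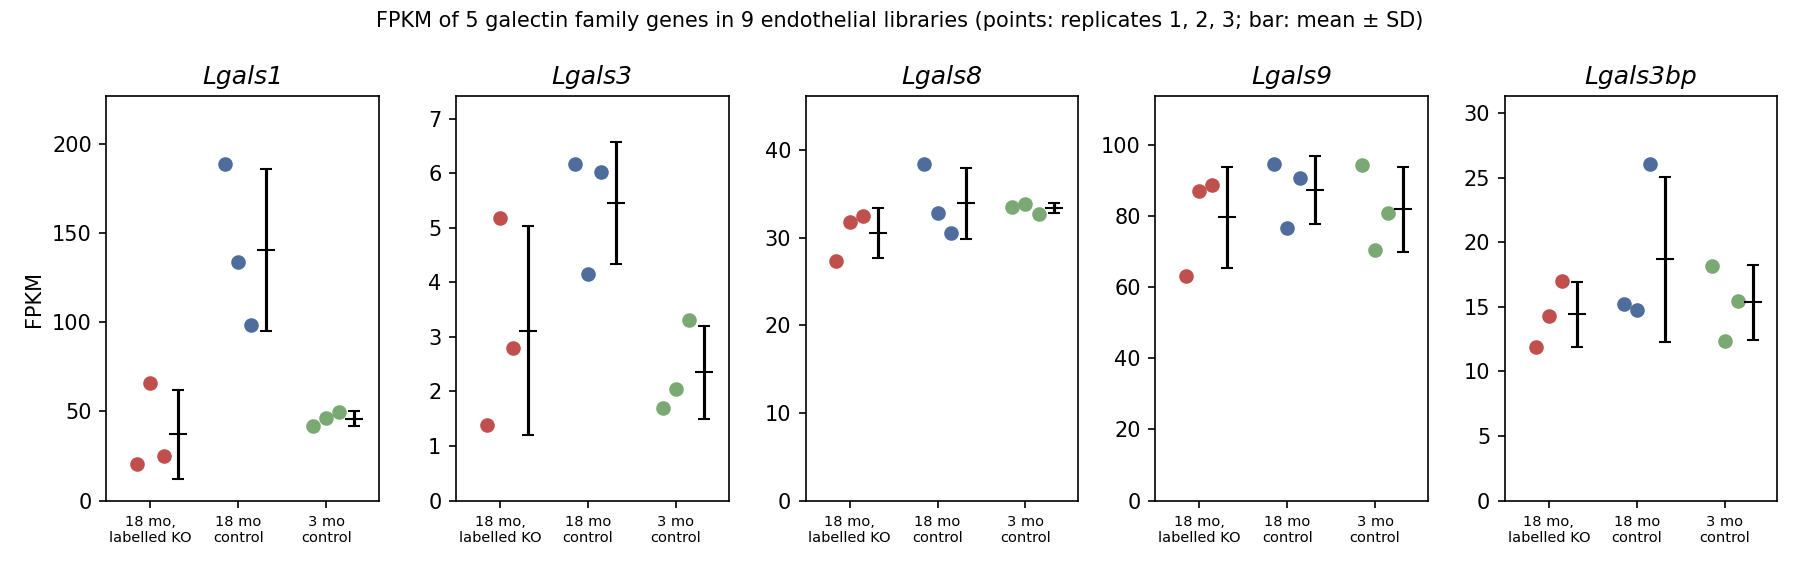
FPKM of the 5 genes in each library, with the groups from left to right labelled knockout, 18-month control and 3-month control; points are replicates 1, 2 and 3 and the bar is the mean ± SD, n = 3. Lgals1 and Lgals3 are higher in each of the 18-month controls than in each of the 3-month controls, while Lgals8, Lgals9 and Lgals3bp overlap there.

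The comparison of the labelled knockout with the 18-month controls chose the family and is a description. The mean of Lgals1 in the labelled knockout group was 0.265 times that of the 18-month controls. The groups did not overlap, as for 11.1% of tested genes in the same direction, from which nothing is read because the rule used these values. As a difference of log2(FPKM + 1), a scale on which changes of low genes come out too small, this was -2.02 ± 0.374 (SE). Without replicate 2 labelled knockout it was -2.52, and over the 9 leave-one-out fits, each without 1 library, it ran from -2.52 to -1.71.

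With age, no galectin passed the test, and Lgals1 came closest. Its mean in the 18-month controls was 3.06 times that of the 3-month controls, a log2 difference of 1.55 ± 0.374 (SE, 95% interval 0.71 to 2.38, limma adjusted p = 0.0514), with 3 of 3 libraries above every 3-month control. The 18-month controls also entered the choice of the family, so this estimate is not independent of that choice. The call turned on the setting. Lgals1 passed in 6 of 11 other settings, among them limma voom on recovered fragments (adjusted p = 0.0307) and the fit of the compared groups alone (adjusted p = 0.0171), and in 2 of the 9 leave-one-out fits, without replicate 1 (adjusted p = 0.0404) or replicate 2 (adjusted p = 0.0082) labelled knockout. Over all of these settings its adjusted p ran from 0.00506 to 0.172, and the difference stayed between 1.31 and 1.77. By exact permutation of the libraries (two-sided) p was 0.1, the smallest value that 3 against 3 allow.

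Between the labelled knockout and the 3-month controls, Lgals1 overlapped. The labelled knockout libraries entered the choice of the family through their Lgals1 values, so this estimate is not independent of it either. The log2 difference was -0.48 ± 0.374 (SE, 95% interval -1.31 to 0.36, limma adjusted p = 0.73, two-sided exact permutation p = 0.5). Without replicate 2 labelled knockout it was -0.98 (adjusted p = 0.23), and without replicate 1 it was -0.16 (adjusted p = 0.923). The sign of the difference was the same in each of these fits, but its size rested on single libraries.

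Galectin-3, the family member most used as a macrophage activation marker, had the lowest transcript level of the 5. Lgals3 stood at 1.38, 5.17 and 2.79 FPKM in the labelled knockout libraries, at 6.17, 4.16 and 6.02 FPKM in the 18-month controls, and at 1.69, 2.05 and 3.31 FPKM in the 3-month controls. These values rest on 72 to 292 recovered fragments per library, against 525 to 3784 for Lgals1. The 18-month controls were again above all 3-month controls, while the labelled knockout libraries spread from below the young range to within the range of the 18-month controls, with replicate 2 highest.

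The mean of Lgals3 in the 18-month controls was 2.32 times that of the 3-month controls (log2 difference 0.96 ± 0.315 SE, 95% interval 0.26 to 1.66, limma adjusted p = 0.0963). It passed in the fit of the compared groups alone (adjusted p = 0.044) and without replicate 2 labelled knockout (adjusted p = 0.0432), and its adjusted p otherwise reached 0.271. Against the 3-month controls, the labelled knockout group differed by 0.22 ± 0.315 on the log2 scale (SE, adjusted p = 0.865), and by -0.13 without its replicate 2. Against the 18-month controls the difference, given without a test, was -0.74 ± 0.315 (SE), and it was -0.4 without replicate 1 and -1.09 without replicate 2 labelled knockout.

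The tandem-repeat galectins varied less. Galectin-9, the ligand of the inhibitory receptor TIM-3, was the most abundant galectin transcript in each of the 3-month and labelled knockout libraries. Lgals9 stood at 63.22, 86.94 and 88.64 FPKM in the labelled knockout libraries, at 94.63, 76.57 and 90.53 FPKM in the 18-month controls, and at 94.26, 70.43 and 80.89 FPKM in the 3-month controls. The 3 groups overlapped. The difference of the 18-month from the 3-month controls was 0.1 ± 0.156 (SE, 95% interval -0.25 to 0.44, limma adjusted p = 0.728), and that of the labelled knockout from the 3-month controls was -0.05 ± 0.156 (95% interval -0.39 to 0.3, adjusted p = 0.95).

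Galectin-8, which binds sugars exposed on damaged vesicles and recruits the autophagy machinery, had the narrowest spread within groups. Lgals8 stood at 27.33, 31.87 and 32.56 FPKM in the labelled knockout libraries, at 38.47, 32.87 and 30.54 FPKM in the 18-month controls, and at 33.53, 33.93 and 32.76 FPKM in the 3-month controls. The labelled knockout libraries were all below the 3-month controls, by a narrow margin between the highest of the labelled knockout (32.56 FPKM) and the lowest of the 3-month controls (32.76 FPKM). That difference did not pass (log2 difference -0.13 ± 0.107 SE, 95% interval -0.37 to 0.11, limma adjusted p = 0.75, exact permutation p = 0.1), and the difference of the 18-month from the 3-month controls was 0.02 ± 0.107 (95% interval -0.22 to 0.26, adjusted p = 0.937).

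Lgals3bp encodes a secreted glycoprotein that binds galectin-3 and integrins. It stood at 11.92, 14.32 and 16.97 FPKM in the labelled knockout libraries, at 15.22, 14.74 and 26.06 FPKM in the 18-month controls, and at 18.15, 12.38 and 15.46 FPKM in the 3-month controls. Replicate 3 of the 18-month controls was above the other 8 libraries, and the groups overlapped. The difference of the 18-month from the 3-month controls was 0.24 ± 0.221 (SE, 95% interval -0.26 to 0.73, limma adjusted p = 0.516), and -0.02 without that library. Labelled knockout and 3-month controls differed by -0.08 ± 0.221 (95% interval -0.57 to 0.41, adjusted p = 0.937). The differences from the 18-month controls, given without a test, were -0.32 for Lgals3bp and -0.14 for both Lgals8 and Lgals9. Single libraries decided their size. Without replicate 3 of the 18-month controls Lgals3bp was at -0.07, and without replicate 1 labelled knockout at -0.2. Lgals8 was at -0.05 without replicate 1 and -0.22 without replicate 3 of the 18-month controls, and at -0.07 without replicate 1 labelled knockout. Lgals9 was at 0.01 without replicate 1 labelled knockout and between -0.23 and -0.08 without any other single library.

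**Figure D2:**
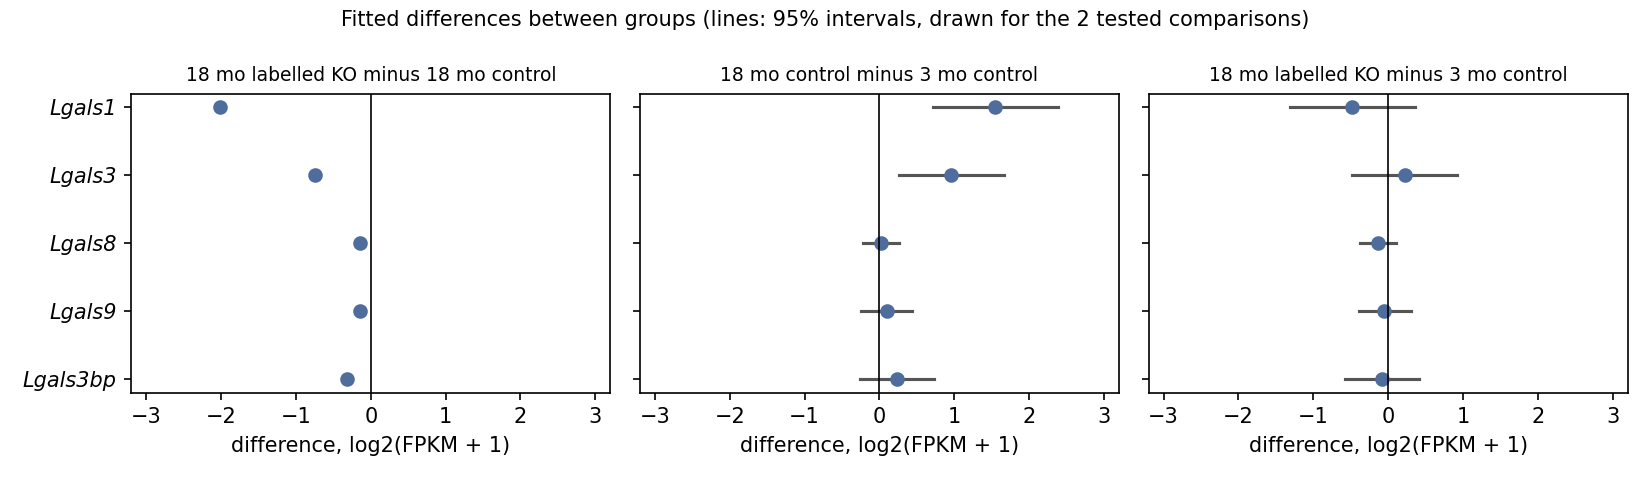
Fitted differences on the log2(FPKM + 1) scale for the 5 genes in 3 comparisons; points are estimates and lines are 95% intervals, drawn only for the 2 comparisons that were tested. In the middle panel the intervals of Lgals1 (0.71 to 2.38) and Lgals3 (0.26 to 1.66) lie above 0, although neither gene passed after adjustment over all genes.

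In all, 0 of the 5 genes passed limma's adjusted threshold of 0.05 between the 18-month and 3-month controls, where 3.99% of tested genes did (1.2% higher and 2.8% lower, or 141 and 330 genes, and 215 and 200 after median-ratio scaling), and 0 of 5 between labelled knockout and 3-month controls, where 0.212% did (0.0848% higher and 0.127% lower). At an unadjusted p under 0.05 the counts were 2 and 0, where 27.7% and 9.27% of tested genes passed, and limma voom called 1 and 0, where it called 5.04% and 0.17%. Groups that did not overlap were found for 2 of 5 genes as higher with age, where 13.9% of tested genes were (21.8% lower, 35.7% in either direction), and for 1 of 5 as lower in the labelled knockout than in the 3-month controls, where 14.0% were (8.46% higher, 22.4% in either direction). The 3 comparisons share groups of libraries, so their values are not independent of each other.

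The order of the galectins by level differed between groups. In all 3 of the 18-month controls Lgals1 was above Lgals9, Lgals8, Lgals3bp and Lgals3, in that order. In the 3-month controls Lgals9 was first and Lgals1 second. In replicates 1 and 3 labelled knockout Lgals1 was below both Lgals9 and Lgals8, and in replicate 2 it was below Lgals9 alone. Lgals8, Lgals3bp and Lgals3 kept their order in all 9 libraries. The ratio of Lgals1 to Lgals9, which does not depend on the scaling of a library, was 0.328, 0.76 and 0.284 in the libraries labelled knockout, 2, 1.75 and 1.09 in the 18-month controls, and 0.442, 0.661 and 0.615 in the 3-month controls. It was above 1 in the 18-month controls and below 1 in the other 6 libraries. Its mean log2 difference between 18-month and 3-month controls was 1.47 (two-sided exact permutation p = 0.1, the smallest possible), and between labelled knockout and 3-month controls -0.45 (p = 0.4, same test). Lgals1 in the labelled knockout and 18-month control libraries entered the choice of the family. The order, the ratio, and the sums and shares below are therefore not independent of that choice.

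**Figure D3:**
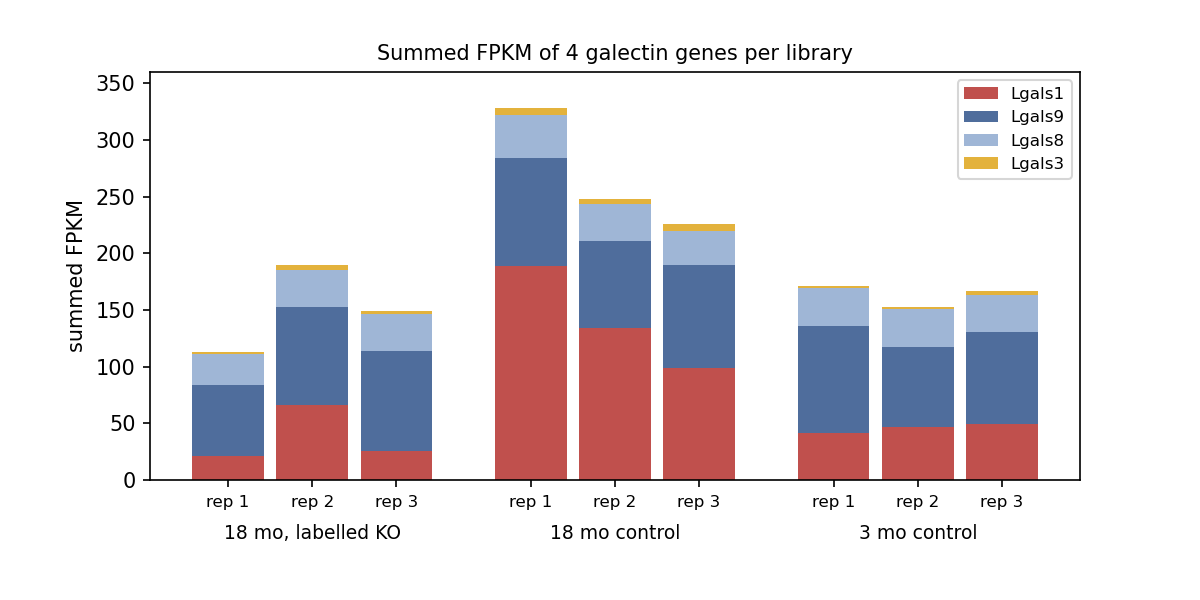
Summed FPKM of Lgals1, Lgals9, Lgals8 and Lgals3 in each library, stacked by gene, with the groups from left to right labelled knockout, 18-month control and 3-month control. Lgals1 makes up 43.7% to 57.6% of the sum in the 18-month controls and 24.4% to 30.4% in the 3-month controls.

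Summed over the 4 galectins, the libraries labelled knockout reached 113, 190 and 149 FPKM, the 18-month controls 328, 248 and 226 FPKM, and the 3-month controls 171, 153 and 167 FPKM. Lgals1 supplied 18.4%, 34.8% and 16.9% of the sum in the libraries labelled knockout, 57.6%, 54.1% and 43.7% in the 18-month controls, and 24.4%, 30.4% and 29.8% in the 3-month controls. Among all tested genes of a library, Lgals1 stood at percentile 78.5 to 93.2 in the labelled knockout group, 95.6 to 97.8 in the 18-month controls, and 89.0 to 91.1 in the 3-month controls. Lgals9 stood at percentile 93.4 to 95.7 in the 9 libraries and Lgals8 at 83.3 to 87.6. Within groups, the SD on the log2 scale was 0.575 for Lgals1, larger than for 96.8% of tested genes, 0.471 for Lgals3, and 0.123 for Lgals8, larger than for 23.5%.

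The genes with the profile most like Lgals1 over the 9 libraries were Bin2, Fcgr2b, C5ar1, Kif1a and Cygb. Likeness was the mean absolute difference between log2(FPKM + 1) profiles, each centred on its own mean, among 6653 other genes averaging 5 FPKM or more, and it was 0.125, 0.209, 0.228, 0.236 and 0.261 for these 5. Bin2, a membrane-curving BAR protein gene also on chromosome 15, was at 1.79, 7.37 and 2.54 FPKM in the labelled knockout libraries, at 23.17, 18.9 and 17.25 FPKM in the 18-month controls, and at 5.08, 4.81 and 5.89 FPKM in the 3-month controls. Fcgr2b, the inhibitory Fc receptor and a marker of sinusoidal endothelium, was at 41.97, 180.85 and 47.76 FPKM in the labelled knockout libraries, at 316.01, 362.27 and 233.65 FPKM in the 18-month controls, and at 99.92, 124.11 and 126.08 FPKM in the 3-month controls. As for Lgals1, replicate 2 was the highest of the labelled knockout libraries for both genes. C5ar1, the receptor gene of complement C5a, was at 39.6, 95.3 and 32.23 FPKM in the labelled knockout libraries, at 175.6, 176.01 and 116.58 FPKM in the 18-month controls, and at 48.22, 53.32 and 45.26 FPKM in the 3-month controls. For the kinesin gene Kif1a the labelled knockout values were 1.61, 5.83 and 1.87 FPKM, and for the cytoglobin gene Cygb 1.38, 5.45 and 1.75 FPKM, again with replicate 2 highest. All 5 genes were chosen for their likeness to Lgals1 over these same libraries, so the shared pattern follows from that choice.

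**Figure D4:**
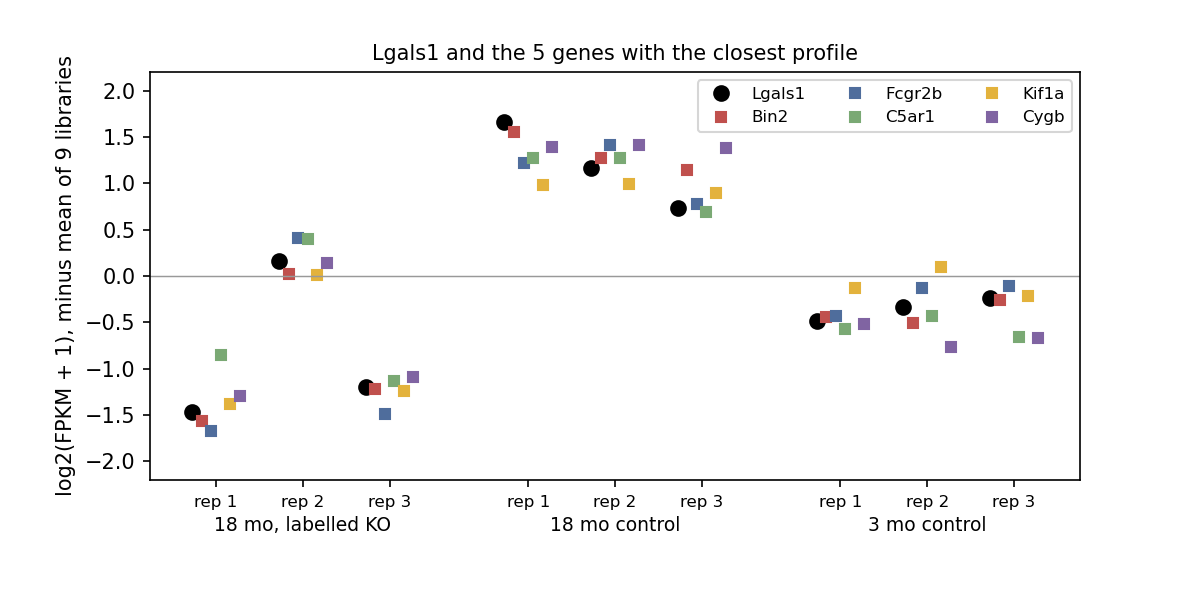
Log2(FPKM + 1) of Lgals1 and the 5 genes with the closest profile, each minus its mean over the 9 libraries, with the groups from left to right labelled knockout, 18-month control and 3-month control. Replicate 2 labelled knockout lies above the other 2 libraries of its group for each of the 6 genes, and all 18-month controls lie above the other libraries. The 5 genes were chosen for this likeness, so the shared pattern follows from the choice.

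Markers of endothelial subtypes and of other marrow cells stand beside Lgals1. The summed FPKM of 6 sinusoidal markers was 623 to 798 in the labelled knockout, 925 to 1090 in the 18-month controls and 702 to 759 in the 3-month controls. Fcgr2b, named above for its likeness to Lgals1, is 1 of the 6, and without it the sums were 683, 617 and 575 FPKM in the labelled knockout, 629, 726 and 691 in the 18-month controls, and 602, 612 and 633 in the 3-month controls, so that the groups overlapped. Of the 5 tested sinusoidal markers, 2 fell in the labelled knockout relative to the 18-month controls, where 2.01% of tested genes did. These were Fcgr2b (log2 difference -2.05, limma adjusted p = 0.0352) and Dnase1l3 (-0.75, adjusted p = 0.0415). The profile of Fcgr2b is close to that of Lgals1, which was picked on this same comparison. The call of Fcgr2b, and the count that includes it, are therefore not independent of that choice. With age limma called 0 of the 5, with 3 at an unadjusted p under 0.05, where 27.7% of tested genes passed. For 6 arterial markers, of which Ly6a supplied 90.0% to 96.0%, it was 284, 586 and 393 FPKM in the labelled knockout, 584 to 685 in the 18-month controls and 312 to 385 in the 3-month controls. In bulk libraries, fewer cells of a type and less RNA per cell cannot be told apart. For 12 B-lineage and plasma cell markers the sum was 645, 2490 and 1100 FPKM in the labelled knockout, 1240 to 3860 in the 18-month controls and 670 to 1110 in the 3-month controls. The immunoglobulin gene Igkc was at 0.87, 1618.47 and 500.08 FPKM in the labelled knockout libraries, at 2318.7, 1274.72 and 389.71 FPKM in the 18-month controls, and at 6.08, 1.4 and 354.14 FPKM in the 3-month controls. In each group Igkc was highest in the same replicate as Lgals1. The B-cell receptor gene Cd79a was at 1.34 to 2.48 FPKM in all 9 libraries. Markers of stromal, osteoblast or adipocyte lineages, 12 genes, summed to 43 to 63.1 FPKM in the labelled knockout, 51.8 to 56.1 in the 18-month controls and 97.1 to 128 in the 3-month controls. Of their 6 tested genes, 5 fell with age (median log2 difference -0.9, against 2.8% of all tested genes that fell). In the labelled knockout 2 were lower than in the 3-month controls, where 0.127% of tested genes were. Relative to the 18-month controls 1 was lower, Adipoq (-0.55, limma adjusted p = 0.0389), where 2.01% of tested genes were. The list's median there was 0.13, and limma voom called 0. Smooth muscle markers summed to 1.27 to 7.15, 3.14 to 6.98 and 10.1 to 13.7 FPKM in the labelled knockout, 18-month control and 3-month control libraries. The part of these cells in the Lgals1 values was not tested.

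For Lgals3, the markers of monocytes and macrophages stand beside it. Their summed FPKM over 15 genes was 607 to 846 in the labelled knockout, 571 to 681 in the 18-month controls and 785 to 928 in the 3-month controls, the opposite order to Lgals3 between the control groups, but 59.7% to 74.7% of it came from Vcam1, which endothelium also expresses. Over its 9 tested genes the median log2 difference was -0.76 between labelled knockout and 18-month controls and 0.49 between 18-month and 3-month controls, opposite in sign to the sums. Limma called 0 of the 9 in each, where 4.79% and 3.99% of tested genes passed. At an unadjusted p under 0.05 there were 3 and 3, where 24.1% and 27.7% of tested genes passed. Limma voom called 0 in both, where it called 5.59% and 5.04%. The macrophage gene Adgre1 was at 0.21 to 0.61 FPKM in the labelled knockout, 0.46 to 0.83 in the 18-month controls and 0.53 to 0.93 in the 3-month controls. Lyz2, the lysozyme gene of myeloid cells, was at 8.79, 28.49 and 23.32 FPKM in the labelled knockout libraries, at 34.29, 28.12 and 43.21 FPKM in the 18-month controls, and at 16.71, 15.32 and 47.5 FPKM in the 3-month controls. Like Lgals3, it was highest in replicate 3 of the 3-month controls and in replicate 2 of the labelled knockout, while among the 18-month controls Lyz2 was highest in replicate 3 and Lgals3 in replicate 1. The part of myeloid cells in Lgals3 was not tested. Neutrophil markers summed to 33.5 to 116 FPKM in the labelled knockout, 13 to 288 in the 18-month controls and 6.41 to 140 in the 3-month controls. Among the 11 marker lists, the only gene at 0 in every library was Cd8a of the T and NK cell list.

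The rest of the galectin system was followed in lists of genes. Of 7 other galectins and galectin-like genes, 6 had a row in the deposited values, where Lgals6 was absent. Only Lgals4 and Lgalsl passed the filter. Lgals4, a tandem-repeat galectin best known from the gut, was at 9.41, 9.02 and 9.96 FPKM in the labelled knockout libraries, at 8.44, 7.77 and 7.68 FPKM in the 18-month controls, and at 8.23, 5.88 and 9.68 FPKM in the 3-month controls. Its groups differed by 0.03 on the log2 scale with age (limma adjusted p = 0.923) and by 0.22 between labelled knockout and 18-month controls (adjusted p = 0.382). Lgalsl, a galectin-related gene without a known sugar ligand, was at 3.51 to 5.39 FPKM and passed in no comparison (adjusted p = 0.192 to 0.914). Lgals2, Lgals7 and Lgals12 had at most 2.48, 0.54 and 0.19 FPKM in any library, and Grifin was listed at 0 in all 9.

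Glycoproteins that galectins bind passed limma's test at about the share of all tested genes. At an unadjusted p under 0.05 there were 7 of 20 between labelled knockout and 18-month controls and 8 of 20 with age. Over all tested genes, 24.1% and 27.7% passed in these comparisons. Limma voom called 1 of 20 in each, where it called 5.59% and 5.04%. Between the labelled knockout and the 18-month controls, where 4.79% of tested genes passed (2.78% higher and 2.01% lower), 1 of 20 tested partners rose and none fell, and the list's median log2 difference was 0.16 against 0 over all tested genes. The member that rose was Tnfrsf9, a costimulatory receptor that galectin-9 binds. It stood at 5.65, 6.51 and 3.2 FPKM in the labelled knockout libraries, at 1.21, 1.86 and 1.24 FPKM in the 18-month controls, and at 1.45, 1.7 and 2.41 FPKM in the 3-month controls (labelled knockout minus 18-month controls 1.3 ± 0.225 SE, limma adjusted p = 0.0137). Without replicate 2 labelled knockout, 5 partners rose and 2 fell in this comparison, where 596 and 563 of the 11796 tested genes did. With age 1 of 20 rose, where 1.2% of tested genes did, and none fell, with a median of -0.16 against -0.05 over all tested genes. This was Bsg, the matrix metalloproteinase inducer basigin and a partner of galectin-3, at 321.26, 293.79 and 364.34 FPKM in the 18-month controls and at 224.74, 231.62 and 235.39 FPKM in the 3-month controls (0.49 ± 0.116 SE, adjusted p = 0.0477). Bsg no longer passed in 7 of the 9 leave-one-out fits. Without replicate 2 labelled knockout, 1 partner rose and 5 fell with age, where 366 and 673 of the 11796 tested genes did.

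Of the glycosyltransferases that build or mask galectin ligands, such as the branching enzymes of the Mgat family and the sialyltransferase St6gal1, 24 rows for 23 symbols were tested, and limma called 0 with age and 0 between labelled knockout and 18-month controls. At an unadjusted p under 0.05 there were 5 and 3, where 27.7% and 24.1% of tested genes passed, and limma voom called 0 in both, where it called 5.04% and 5.59%. The medians were -0.03 with age and 0.02 between labelled knockout and 18-month controls. In the response to damaged lysosomes, in which galectin-3 and galectin-8 act, 2 of 18 genes rose in the labelled knockout relative to the 18-month controls and none fell, where 2.78% of tested genes rose, and 1 of 18 fell with age, where 2.8% did. The list's medians were 0.1 and -0.11 in these comparisons, against 0 and -0.05 over all tested genes. At an unadjusted p under 0.05 the list held 3 and 5 of 18, where 24.1% and 27.7% of tested genes passed. Limma voom called 2 and 1 of them, where it called 5.59% and 5.04% of tested genes. Tfrc, the transferrin receptor, was at 6.73, 3.59 and 5.98 FPKM in the labelled knockout libraries, at 2.02, 1.91 and 1.7 FPKM in the 18-month controls, and at 4.23, 3.66 and 4.55 FPKM in the 3-month controls. Its difference was 1.13 ± 0.181 (SE) between labelled knockout and 18-month controls (limma adjusted p = 0.00934), held in all 9 leave-one-out fits, and -0.84 ± 0.181 with age (adjusted p = 0.0416), lost in 7 of them. Pdcd6ip, an ESCRT adaptor that galectin-3 recruits to damaged lysosomes in human cells, differed by 0.39 ± 0.0898 between labelled knockout and 18-month controls (adjusted p = 0.0385), a call lost in 7 of the 9. Without replicate 2 labelled knockout, 1 glycosyltransferase fell and 2 lysosome genes rose between labelled knockout and 18-month controls. In that fit 596 of the 11796 tested genes rose and 563 fell. With age, 1 lysosome gene rose and 2 fell, where 366 and 673 of all tested genes did. Between labelled knockout and 3-month controls, the lists of other galectins, partners, glycosyltransferases and lysosome genes held 2, 20, 24 and 18 tested rows. None passed limma's test, where 0.212% of tested genes did, so little can be read from it for lists of this size. At an unadjusted p under 0.05 there were 0, 3, 1 and 0, where 9.27% of tested genes passed. Limma voom called 0 in each list, where it called 0.17% of tested genes.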

How the data were processed

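The authors deposited FPKM values (fragments scaled by gene length and library depth) per gene, rounded to 2 decimals. FastQC 0.11.5, STAR and edgeR were used, per the submitters' processing notes, which name GRCm38 and mm10. How fragments were counted, and whether by strand, was not given in the sources used here. Depth was recovered from genes of 60 to 400 bases, where 99.4% to 99.7% of low values were whole fragments within 0.1. All 52183 identifiers matched GENCODE M21.

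Values were tested as log2(FPKM + 1) with limma 3.58.1 in R 4.3.3, with 1 fit of all 9 libraries, a mean per group, eBayes with a trend, and Benjamini-Hochberg adjustment over the 11796 genes averaging 1 FPKM or more. Library scaling was that of the deposited FPKM. Exact permutation tests used SciPy 1.17.1. The fit was also run on simulated data for 18-month against 3-month controls, with normal noise independent between genes and libraries. That run does not cover an outlying library, and no result here rests on it. Members and gene lists were chosen with earlier results of these data known. Named genes were the 5 members, Thbs1, other galectins that passed the filter, up to 4 called genes per list and comparison, the 5 profiles closest to Lgals1, and marker genes. Alternatives were other pseudocounts, filters, scalings, weights, eBayes settings, sample sets, a replicate block, voom on recovered fragments, and each library left out. Heatr1, and the galectins below the filter, were named after their values were seen.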

Additional observations from a re-analysis of the deposited data

How the results depend on the processing

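The counts of called genes depended on the setting. For labelled knockout against 18-month controls, 18-month against 3-month controls, and labelled knockout against 3-month controls, 565, 471 and 25 genes passed. Without a filter on low values there were 146, 39 and 15, with array weights 1854, 2320 and 621, and with each library left out 197 to 1159, 5 to 1039 and 11 to 31. In fits of the compared groups alone there were 149 and 716 in the first pair of comparisons, and with a mean of at least 5 FPKM 12 in the last. After median-ratio scaling the 471 genes, 141 higher and 330 lower with age, became 215 higher and 200 lower. With the replicate number as a block 183 genes passed with age, and the block changed no member's call. Same-numbered libraries of different groups deviated together with correlations of -0.129 to 0.124, against -0.213 to 0.173 for libraries with different numbers. No pairing by number is seen in these values, and a shared batch was not tested. Lgals1 passed with age at a pseudocount of 5 (1.47), the filter at 5 FPKM (1.55), median-ratio scaling (1.6), array weights (1.52), the compared groups alone (1.55) and voom (1.56), and with each library left out its difference was 1.31 to 1.77. Lgals3 passed with age in the compared groups alone (0.96), and was 0.82 to 1.16 with each library left out and -0.13 to 0.56 for labelled knockout against 3-month controls. Differences near 0 changed sign. With age, Lgals8 and Lgals9 were each at -0.02 after quantile normalization and -0.01 with array weights, and at -0.07 to 0.09 and -0.01 to 0.2 with each library left out, where Lgals3bp was at -0.02 to 0.37. For labelled knockout against 3-month controls, array weights gave 0.05 for Lgals9 and 0.07 for Lgals3bp, and leaving out each library -0.15 to 0.11 and -0.22 to 0.04. The causes were not tested. In all, 174 of 198 tested member values kept their direction and side of the threshold. For labelled knockout against 18-month controls, 99 of 99 values moved by less than the within-group SD, a wide limit (0.575 for Lgals1). Several settings, such as robust eBayes or leaving out a 3-month control, cannot change this difference, so the count does not measure stability. Lgals9 changed sign with array weights (0.06), where Lgals3bp was at -0.02. With 72 fragments in the lowest library, Lgals3 is the member most limited by depth. Lgals3 was not tested with a mean of at least 5 FPKM, which it does not reach.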
